A study of Mus musculus with 3 samples.

Results

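Ch25h, Cyp7b1 and Hsd3b7 were followed across the stromal cell types of the mouse lymph node. They are 3 of the 51912 genes in the count matrices and were taken by their symbols. Cells came from lymph nodes of C57BL/6 mice carrying the CXCL13-TdTomato transgene, whose Cxcl13 promoter sequence drives Cre and the red reporter, and were sorted as live Podoplanin+ CD31- CD45- CXCL13-TdTomato+ cells. The age of the mice was not given in the sources used here. All mice received immune complexes of antigen and antibody. In the 2-IC group (2 libraries) a first complex was given 7 days and another 24 hours before analysis, and in the 1-IC group (1 library) a single complex was given 24 hours before, so there was no library of mice without a complex. The library names in the titles of the 2-IC pair also differ (Biotin24h for replicate 1 and Biotin7d for replicate 2), and what sets them apart was not given, so they may not be replicates of a single treatment. Lymph nodes of several mice were pooled for each library, and the spread between libraries is therefore one between pools.

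The product of this pathway, an oxysterol, is a lipid that draws B cells. CH25H adds a hydroxyl group to cholesterol at its side chain, CYP7B1 adds another to the sterol ring, and the resulting dihydroxycholesterol is the ligand of EBI2, the receptor encoded by Gpr183. HSD3B7 converts that ligand into a form that no longer activates the receptor, so stroma with much HSD3B7 acts as a sink. In lymphoid tissue EBI2 helps to position activated B cells at the outer follicle, in the interfollicular zones and at the border of the T cell zone.

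Ch25h (ENSMUSG00000050370) is a gene of 1 exon on the minus strand of chromosome 19, from 34473778 to 34475164 in build GRCm38. Cyp7b1 (ENSMUSG00000039519) has 6 exons on the minus strand of chromosome 3, from 18071950 to 18243338. Hsd3b7 (ENSMUSG00000042289) lies on the plus strand of chromosome 7, from 127800604 to 127803802, where the annotation also places Gm49388 on the same strand and 9430064I24Rik on the opposite one. How reads in the stretch shared with Gm49388 were assigned was not tested.

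The sequence just before the Ch25h start is shown because Ch25h was the member whose level differed between cell types. It is the RefSeq promoter entry (build GRCm38.p6, minus strand), trimmed to the 234 bases before the annotated gene start at chr19:34475165-34475398. Capitals mark, in order, the motifs TATAAA and TGACGTCA.
Ch25h upstream: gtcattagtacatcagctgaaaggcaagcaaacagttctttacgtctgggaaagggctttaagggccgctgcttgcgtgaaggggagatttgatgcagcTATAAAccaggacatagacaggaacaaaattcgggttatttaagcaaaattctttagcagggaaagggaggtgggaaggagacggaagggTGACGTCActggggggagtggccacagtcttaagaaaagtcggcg
TGACGTCA, the cyclic AMP response element, begins 45 bases before the gene start and was found on either strand in 1.79% of the 32851 promoter entries of 300 bases. TATAAA begins 135 bases before the start and was found in 13.6% of them. Neither motif was found in the Hsd3b7 entry. These matches only describe the letters of the windows.

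The matrices held 5486 barcodes, of which 2243 were retained after the study's filters (1526 and 391 in 2-IC replicates 1 and 2, and 326 in 1-IC replicate 1), with a median of 4700.5, 14732 and 5979 unique molecular identifiers (UMIs, counted mRNA molecules) each. Barcodes were placed in gates by raw UMIs, in a fixed order. A barcode with Cr2, the complement receptor, went to the FDC gate (follicular dendritic cells, 230 barcodes), one with Madcam1 to the MRC gate (marginal reticular cells, 83), one with Tnfsf11 to the IFRC gate (interfollicular reticular cells, 593), one with Fmod to the TBRC gate (reticular cells of the T-B border, 256) and one with Inmt to the MedRC gate (medullary reticular cells, 633). A further 448 barcodes had none of the 5 genes and were left ungated. In the 3 libraries 31.6 to 48.6% of retained barcodes carried 2 or more of the gate genes. Each gate but MedRC, the last, therefore holds cells in which genes of later gates were also present.

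The other markers followed the gates in part. In the FDC gate, Fcer2a was at 198 ± 25.4 CPM (UMIs of the gene scaled to 1000000 UMIs in all; mean ± SD, n = 3 libraries) and in the other gates at 10.0 CPM or less. Fcgr2b and Cd200 were at 218 ± 39.6 and 318 ± 131 CPM in the FDC gate, against 11.4 ± 14.6 and 37.2 ± 29.4 CPM in the MRC gate. Clu, another FDC marker, was similar in the FDC and MRC gates, at 17480 ± 6656 and 15480 ± 3746 CPM. Sox9 was at 301 ± 30.7 and 116 ± 38.2 CPM in them, and Coch at 214 ± 50.5 and 53.7 ± 38.3 CPM. Bst1, an MRC marker, was at 570 ± 18.8 CPM in the MRC gate but also at 450 ± 69.5 CPM in the FDC gate. Madcam1, the MRC gate gene, was at 363.8 ± 161.9 CPM in the MRC gate and 334.1 ± 171.8 CPM in the FDC gate. Cxcl13, listed for both, was at 21504 ± 5682 and 35604 ± 17087 CPM. Tnfsf11, the IFRC gate gene, was at 297.1 ± 61.05 CPM in the IFRC gate and 421.7 ± 26.91 CPM in the MRC gate. Cxcl9, an IFRC marker, was at 247.5 ± 106.5 CPM in IFRC, 239.6 ± 161.0 in TBRC and 209.9 ± 138.6 in FDC. Ccl21a, a chemokine of the T cell zone, reached 11040 ± 1084 CPM in the TBRC gate. It was also at 5182 ± 2277 CPM in the MRC gate, 3901 ± 1439 CPM in the IFRC gate and 8388 ± 4055 CPM in ungated barcodes. Cyp2f2, a medullary marker, reached 201 ± 68.3 CPM in the MedRC gate and 98.5 ± 54.3 CPM in the IFRC gate. Stc1, another, was at 289 to 450.3 CPM in the MedRC libraries and 295 to 478 CPM in the IFRC libraries, and Inmt, the MedRC gate gene, was found in 67.7 ± 11.96% of IFRC-gated barcodes, so the IFRC gate carried medullary markers. Of 15 markers of B, T, myeloid and endothelial cells, 7 were at 0 because the filter removed barcodes that held them. The sum of the others was highest in the FDC gate (93.5 to 219 CPM in the 3 libraries) and lay between 10.3 and 147 CPM in the other 4 gates. Its part in the differences described next was not tested. The 2-IC libraries shared 76 barcodes, of which 40 and 20 were retained, and 2 barcodes were shared between 2-IC replicate 1 and 1-IC replicate 1.

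Ch25h was highest in the MRC gate and second in the IFRC gate. It was at 120.6 CPM in 2-IC replicate 1, 102 CPM in 2-IC replicate 2 and 83.4 CPM in 1-IC replicate 1 in MRC-gated barcodes. In the IFRC gate the same libraries gave 53.9, 35.8 and 26.5 CPM. Every library of the MRC gate thus lay above every library of the IFRC gate.

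In the FDC gate Ch25h was at 26.0, 19.2 and 12.5 CPM in the same order of libraries. The IFRC libraries lay just above these, the lowest IFRC library being at 26.5 CPM and the highest FDC library at 26.0 CPM. In the MedRC gate the values were 15.4, 10.6 and 12.4 CPM. In the TBRC gate they were 14.9 and 20.6 CPM in the 2-IC libraries, and no Ch25h UMI was found among 150918 in the 1-IC library, which allows up to 19.9 CPM. The FDC, MedRC and TBRC gates overlapped one another. Over the libraries the means were 102 ± 18.6 CPM in the MRC gate, 38.8 ± 13.96 in IFRC, 19.2 ± 6.79 in FDC, 12.8 ± 2.45 in MedRC and 11.9 ± 10.7 in TBRC (SD, n = 3). Ch25h was itself a listed marker of IFRC and TBRC, but its highest mean was in the MRC gate and its lowest in the TBRC gate.

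**Figure D1:**
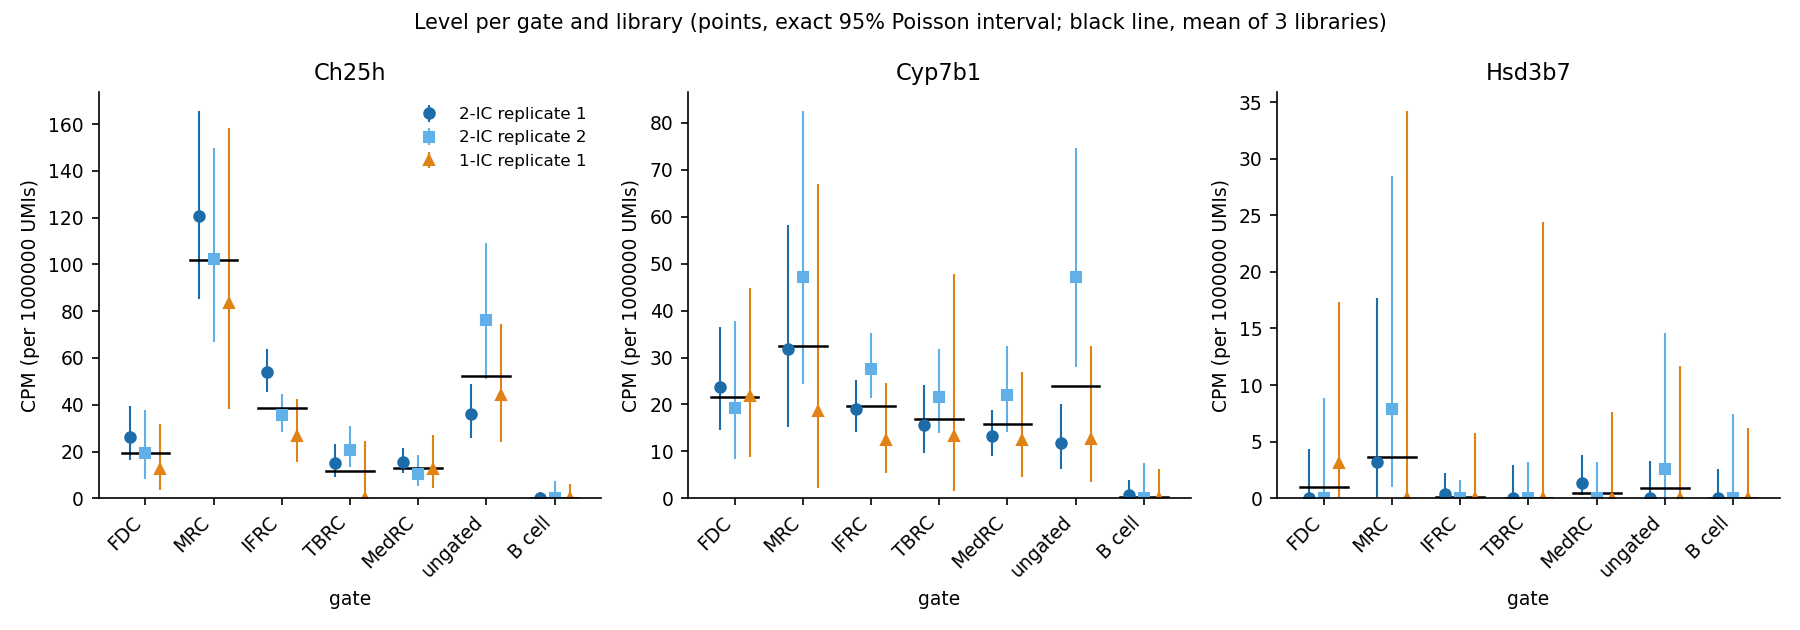
Ch25h, Cyp7b1 and Hsd3b7 in CPM (linear axes that differ between panels) by gate, with 1 point per library, exact 95% Poisson intervals that cover counting error only, and black lines for the mean of the 3 libraries. The MRC points of Ch25h, at 83.4 to 120.6 CPM, stand above all other gated points, while the gates overlap for Cyp7b1 and almost all Hsd3b7 points are at or near 0.

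The share of barcodes with a Ch25h UMI followed the same order at the top. It was 38.0, 62.5 and 35.3% of MRC-gated barcodes in the 3 libraries, 18.1, 23.7 and 10.98% of IFRC-gated ones and 7.59, 11.4 and 6.00% of FDC-gated ones. The MRC gate held 3.70% of retained barcodes, 4.22% of all UMIs and 14.0% of the 522 Ch25h UMIs. The IFRC gate held 26.4% of barcodes, 34.2% of all UMIs and 45.2% of the Ch25h UMIs. A few barcodes carried many of these UMIs: 1 barcode held 13 of the 26 in the MRC gate of 2-IC replicate 2, and another held 10 of the 24 in the TBRC gate of that library. With each barcode thinned to 2000 UMIs, 17.8% of 45, 0% of 14 and 20.0% of 15 MRC-gated barcodes kept a Ch25h UMI, against 8.38, 3.82 and 2.60% of IFRC-gated ones, so the order of the MRC and IFRC gates did not hold in 2-IC replicate 2 at equal depth. In 545 B cell barcodes left by the sort, Ch25h had 0 UMIs among 2529276, which allows up to 1.19 CPM. These were chosen for UMIs of Cd79a and Cd79b and for having none of the stromal genes Col1a2, Pdpn and Pdgfrb, so they may understate free stromal RNA, although Cxcl13 was at 540 ± 99.6 CPM in them.

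All 10 pairs of gates were then tested on UMIs summed per gate and library, with library as a block (edgeR's quasi-likelihood test, Benjamini-Hochberg adjustment over 13882 genes). Ch25h passed an adjusted p of 0.05 in 7 of them. It was higher in the MRC gate than in each of the other 4. The log2 difference of MRC minus FDC was 2.19 (SE 0.33, adjusted p = 6.68e-07), in a comparison in which 3.6% of all genes were called. IFRC minus MRC was -1.21 (SE 0.25, adjusted p = 0.000612, with 4.08% of genes called). TBRC minus MRC was -2.52 (SE 0.31, adjusted p = 3.57e-09, with 6.29% called) and MedRC minus MRC was -2.81 (SE 0.30, adjusted p = 2.62e-11, with 8.27% called). Ordered by p, Ch25h was gene 73 of 13882 in MRC minus FDC and gene 40 in MedRC minus MRC. The median of all genes lay between -0.13 and 0.16 in these 4 pairs, small beside the Ch25h values.

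The IFRC gate was higher in Ch25h than the TBRC and MedRC gates. TBRC minus IFRC was -1.31 (SE 0.27, adjusted p = 0.000611, with 2.81% of genes called) and MedRC minus IFRC was -1.60 (SE 0.25, adjusted p = 8.42e-06, with 2.17% called). Ch25h was gene 35 by p in the latter pair. The study had described its IFRC cluster in these same libraries by expression of Tnfsf11 and Ch25h. The pair of IFRC and FDC was set as the main one for that reason, so it gives no independent support for Ch25h in that cell type. IFRC minus FDC was smaller, at 0.98 (SE 0.29, adjusted p = 0.0125), in a comparison where 14.4% of genes were called. This call depended on the analysis: the adjusted p was 0.20 without the library block, 0.0996 with DESeq2, 0.127 after thinning and 0.276 without 2-IC replicate 1, which held 376 of the 593 IFRC barcodes, although the difference stayed between 0.91 and 1.63. Without that library the differences of the TBRC and MedRC gates from IFRC did not pass the threshold either (adjusted p = 0.502 and 0.057), and without the block the calls of IFRC against MRC, TBRC and MedRC were lost as well (0.161, 0.282 and 0.207). The 3 calls of the MRC gate against FDC, TBRC and MedRC stayed without the block and without any 1 library. In thinned data MRC minus FDC (2.49, adjusted p = 0.0854), IFRC minus MRC (-0.86, adjusted p = 0.599) and MedRC minus IFRC (-1.22, adjusted p = 0.286) did not pass.

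With all gated barcodes, no difference past the threshold was found among the 3 gates with little Ch25h. With exactly 1 gate gene, TBRC minus FDC and MedRC minus TBRC did pass, as given below. TBRC minus FDC was -0.34 (95% interval -1.08 to 0.40, adjusted p = 0.642, with 14.7% of genes called), MedRC minus FDC was -0.62 (-1.34 to 0.09, adjusted p = 0.260, with 18.3% called) and MedRC minus TBRC was -0.29 (-0.96 to 0.38, adjusted p = 0.920, with 1.72% called). These edgeR intervals leave room for a difference of either size or sign up to their bounds.

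**Figure D2:**
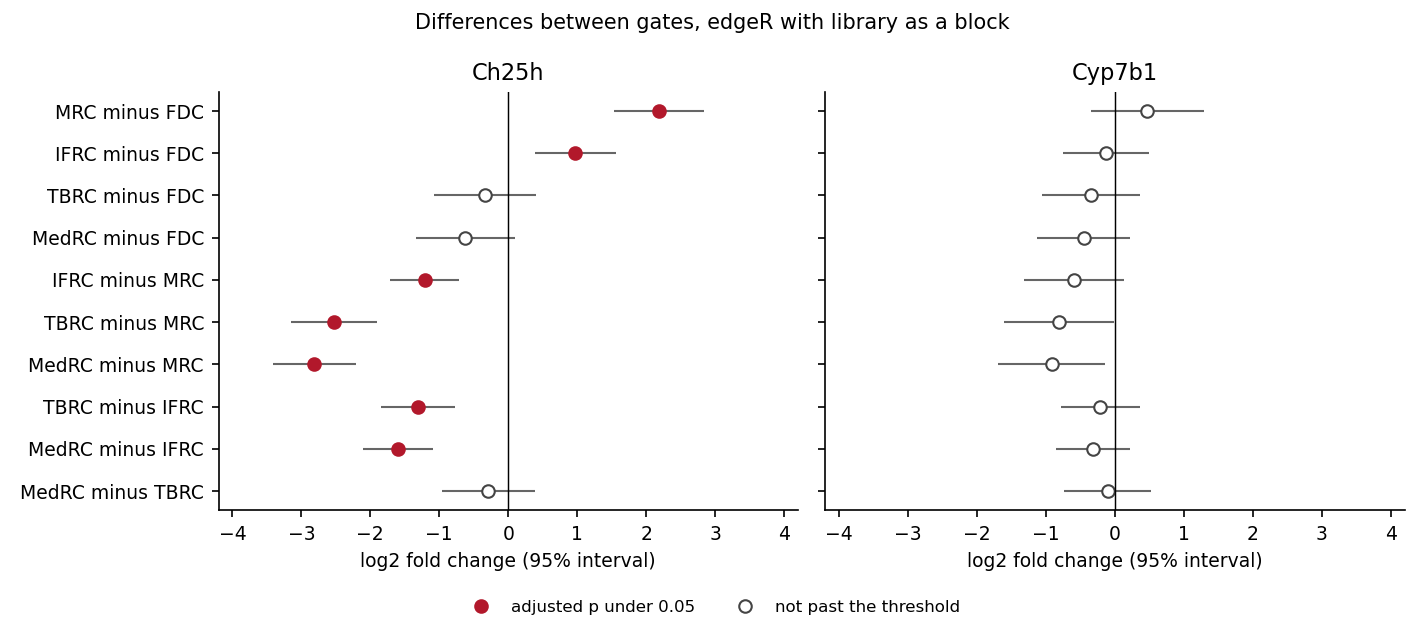
Log2 fold change with its 95% interval for each of the 10 pairs of gates, for Ch25h (left) and Cyp7b1 (right), from edgeR with library as a block; filled points passed an adjusted p of 0.05. Ch25h passed in 7 of 10 pairs, from 0.98 in IFRC minus FDC to -2.81 in MedRC minus MRC, and Cyp7b1 in none.

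Cyp7b1, the enzyme of the next step, had its highest mean in the MRC gate (32.5 ± 14.4 CPM) and its lowest in the MedRC gate (15.9 ± 5.33 CPM; SD, n = 3), and no pair of gates passed the test. It was at 23.7, 19.2 and 21.8 CPM in the FDC gate of 2-IC replicate 1, 2-IC replicate 2 and 1-IC replicate 1. In the MRC gate it was at 31.7, 47.2 and 18.5 CPM and in the IFRC gate at 19.0, 27.6 and 12.5 CPM. The TBRC gate gave 15.7, 21.5 and 13.3 CPM and the MedRC gate 13.2, 21.99 and 12.4 CPM. In each library the MRC gate was above the IFRC, TBRC and MedRC gates. In 1-IC replicate 1 the MRC and TBRC values rest on 2 Cyp7b1 UMIs each. The exact Poisson interval of that MRC value, 2.24 to 66.95 CPM, covers the values of the other gates in that library. How many other genes show the same order of gates was not examined. Over the libraries the values of all 5 gates overlapped, and 2-IC replicate 2 was the highest library in every gate but the FDC gate.

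By edgeR, IFRC minus FDC was -0.14 (SE 0.31, 95% interval -0.76 to 0.49, adjusted p = 0.854). The largest difference was MedRC minus MRC at -0.92 (SE 0.39, 95% interval -1.70 to -0.14), with an unadjusted p of 0.0207 and an adjusted p of 0.161. With barcodes that held contaminant genes put back, MRC minus FDC alone passed, at 1.00 (edgeR adjusted p = 0.023). The FDC gate then also held B cells, since 177 of the 545 B cell barcodes carried Cr2. Their part in this call was not tested. The IFRC gate held 37.3% of the 322 Cyp7b1 UMIs and 34.2% of all UMIs, and the MRC gate held 7.45 and 4.22%. In B cell barcodes 1 Cyp7b1 UMI was found.

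The ratio of Ch25h to Cyp7b1 UMIs therefore moved with Ch25h. It is given only to compare gates, since UMI counts of different genes do not measure their molecules equally. On the log2 scale, with 0.5 added to each count, it was 1.63 ± 0.47 in the MRC gate, 0.97 ± 0.56 in the IFRC gate, -0.20 ± 0.47 in FDC, -0.27 ± 0.67 in MedRC and -0.82 ± 1.30 in TBRC (SD, n = 3). Of 251 barcodes with Ch25h, 43 also had Cyp7b1, the transcript of the other maker. Among all 2243 retained barcodes, 244 had Cyp7b1. Of the 43, 19 were in 2-IC replicate 1, 22 in 2-IC replicate 2 and 2 in 1-IC replicate 1. In the MRC gate of 2-IC replicate 2, the deepest library, 7 of 16 barcodes had both and all 7 with Cyp7b1 also had Ch25h, and in the IFRC gate of that library 9 of 135 had both. In the FDC, IFRC, TBRC and MedRC gates of 1-IC replicate 1 and the MedRC gate of 2-IC replicate 1, no barcode had both. Scaled to all UMIs, Cyp7b1 was at 20.4, 32.3 and 9.46 CPM in barcodes with Ch25h and 16.4, 25.4 and 14.9 CPM in those without. Barcodes with Ch25h were deeper than those without in all 3 libraries (median 6098 against 4590 UMIs in 2-IC replicate 1), and the part of depth in these joint counts was not tested.

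Hsd3b7, the enzyme that removes the ligand, was barely detected. It had 9 UMIs in all 2243 retained barcodes, 5 in 2-IC replicate 1, 3 in 2-IC replicate 2 and 1 in 1-IC replicate 1. The MRC and MedRC gates held 3 each, the FDC and IFRC gates and the ungated barcodes 1 each, and the TBRC gate none of 2588520 UMIs, which allows up to 1.16 CPM. The MRC gate thus held 33.3% of the Hsd3b7 UMIs and 4.22% of all UMIs, and the MedRC gate 33.3 and 24.3%. Pooled over libraries this was 4.43 CPM in MRC (exact Poisson 95% interval 0.914 to 12.95) and 0.770 CPM in MedRC (0.159 to 2.25). The level over all retained barcodes was 0.561 CPM (exact Poisson 95% interval 0.257 to 1.07). With so few UMIs it was below the 15 needed for a test, and no difference between gates was detectable at this depth. A fit with all genes gave no call in the 10 pairs either (IFRC minus FDC -1.29, 95% interval -5.81 to 3.23, edgeR adjusted p = 0.945). B cell barcodes had 0 Hsd3b7 UMIs.

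The level of Ch25h also varied within the gates. In the MRC gate, barcodes with 2 or more Madcam1 UMIs were at 141, 155 and 103 CPM in 2-IC replicate 1, 2-IC replicate 2 and 1-IC replicate 1, and those with 1 Madcam1 UMI at 94.2, 35.6 and 0 CPM. In the IFRC gate, barcodes with 2 or more Tnfsf11 UMIs were at 65.9, 48.7 and 37.9 CPM, and those with 1 at 39.4, 13.1 and 15.4 CPM. Tnfsf11 encodes RANKL, a cytokine of the TNF family. In both gates each library was higher with more UMIs of the gate gene, and in 5 of these 6 comparisons the barcodes with more gate UMIs also had the higher median depth (6580.5 against 4695.5 UMIs in the MRC gate of 2-IC replicate 1). The part of depth was not tested.

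Tnfsf11 split the MRC gate in the same direction. MRC-gated barcodes with Tnfsf11 were at 134, 109 and 92.6 CPM of Ch25h, and those without at 93.6, 57.4 and 61.9 CPM. The latter rest on 10, 2 and 2 Ch25h UMIs. In the FDC gate the direction was not shared by the libraries: with 2 or more Cr2 UMIs Ch25h was at 12.7, 8.95 and 15.7 CPM, and with 1 Cr2 UMI at 50.7, 61.3 and 0 CPM. With Fmod, IFRC-gated barcodes had 44.3, 66.9 and 63.1 CPM, and without it 55.1, 24.7 and 22.5 CPM. These splits were chosen after the values of the gates were known and were not tested.

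**Figure D3:**
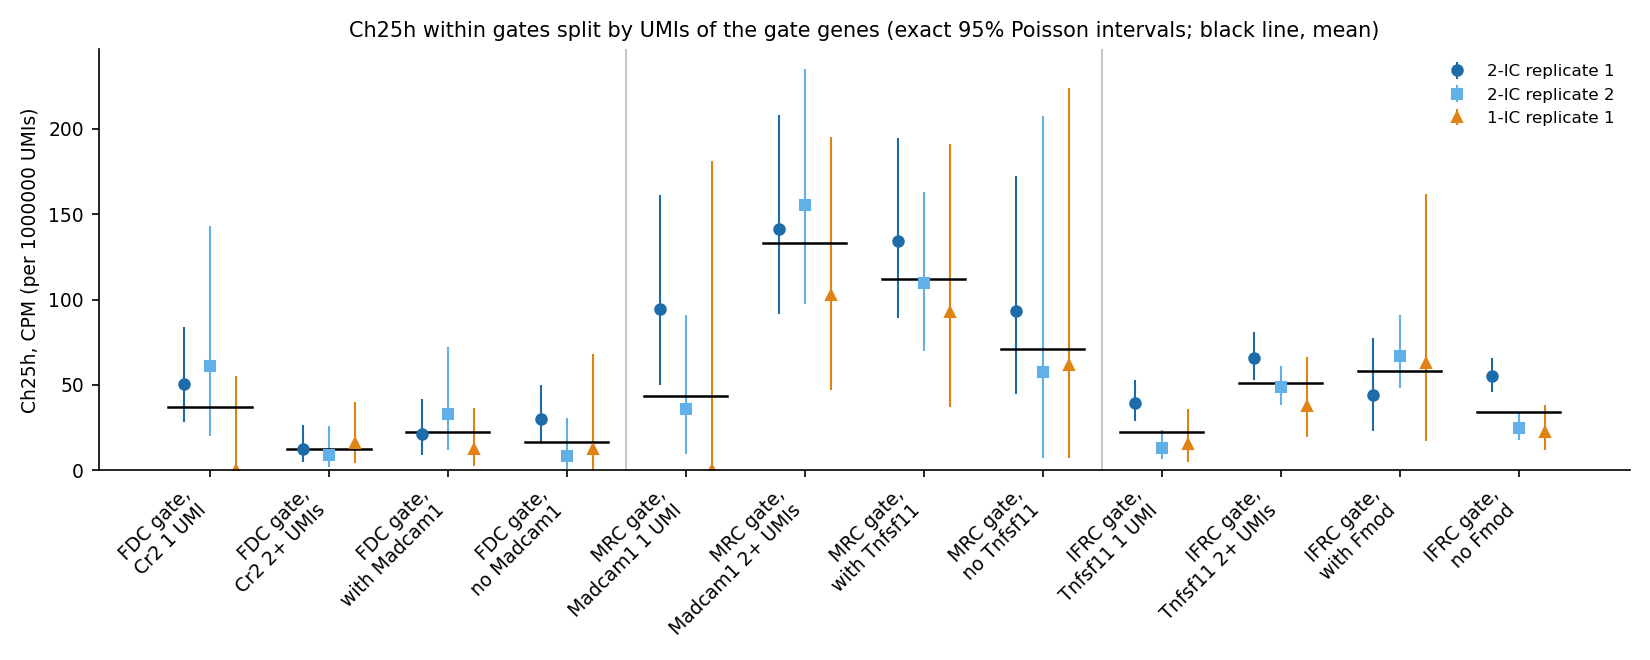
Ch25h in CPM (linear axis) within the FDC, MRC and IFRC gates split by UMIs of the gate genes, with 1 point per library, exact 95% Poisson intervals and black lines for the mean. MRC-gated barcodes with 2 or more Madcam1 UMIs reach 103 to 155 CPM, and FDC-gated barcodes with 2 or more Cr2 UMIs stay at 8.95 to 15.7 CPM.

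A stricter gate changed the size of the difference from the FDC gate. With 2 or more UMIs of the gate gene required, IFRC minus FDC was 2.08 for Ch25h, and with barcodes that held exactly 1 of the 5 gate genes it was 3.57 (edgeR adjusted p = 9.38e-06 and 6.28e-05). In that last set the FDC gate had 1, 0 and 1 Ch25h UMIs and the MRC gate 10, 2 and 2, and IFRC minus MRC (-0.10, edgeR adjusted p = 0.971), TBRC minus MRC (-1.15, edgeR adjusted p = 0.617) and TBRC minus IFRC (-1.05, edgeR adjusted p = 0.148) did not pass. This fit had 14 of the 15 sums of gate and library, since sums of under 5 barcodes were left out. TBRC minus IFRC also lost its call with contaminant barcodes put back (-1.03, edgeR adjusted p = 0.091). With exactly 1 gate gene, TBRC-gated barcodes held 30.0, 48.9 and 0 CPM. In that set TBRC minus FDC, at -0.34 with all barcodes, became 2.51 (edgeR adjusted p = 0.0467). It was also above 0, without a call, with 2 or more gate UMIs (0.53) and with contaminant barcodes put back (0.34). MedRC minus TBRC passed as well with exactly 1 gate gene, lower in MedRC as it was with all barcodes.

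**Figure D4:**
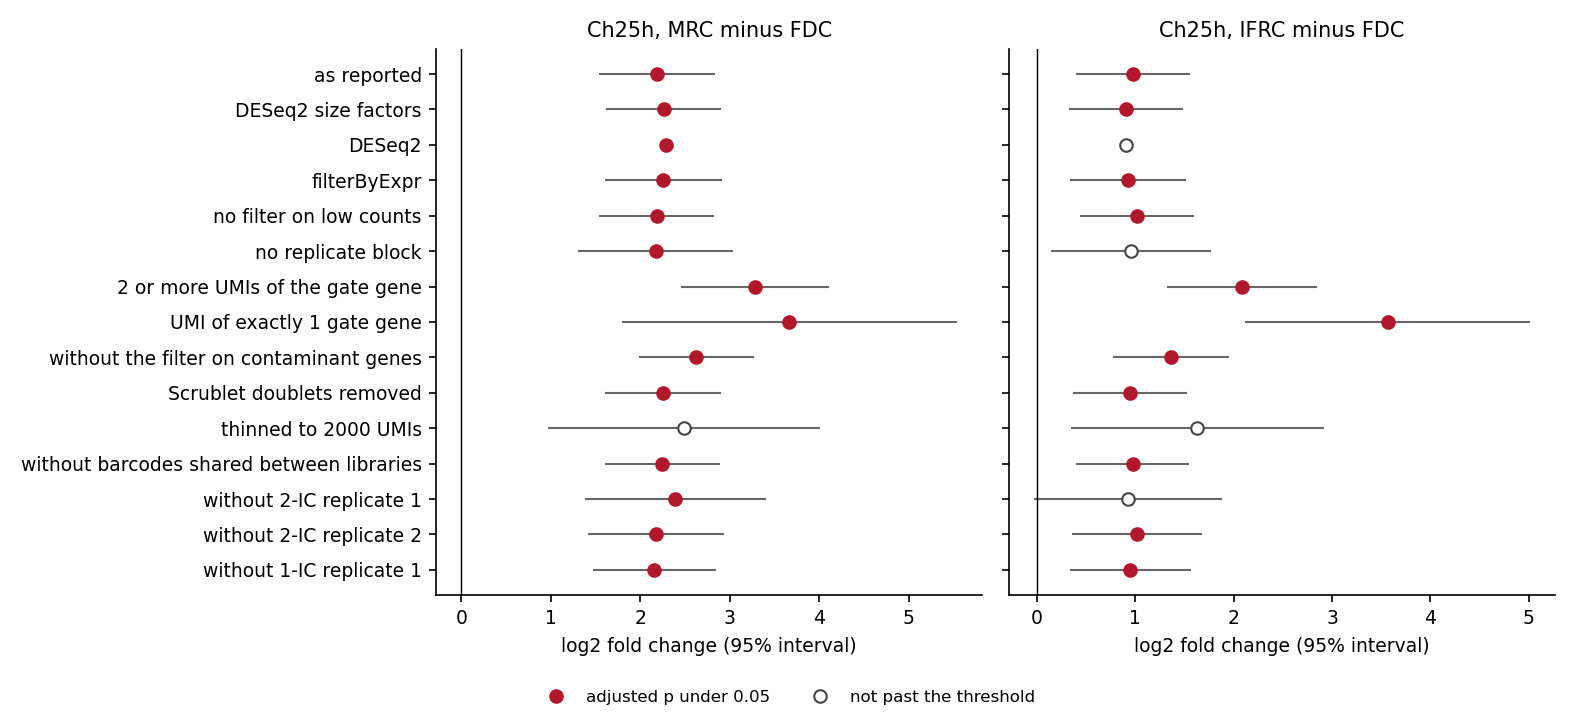
Log2 fold change of Ch25h with its 95% interval for MRC minus FDC (left) and IFRC minus FDC (right) under each way of processing (the DESeq2 point has no interval drawn); filled points passed an adjusted p of 0.05. MRC minus FDC passed in all but the thinned data, and IFRC minus FDC lost its call in 4 of the alternatives.

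Ch25h was also read in further sets of barcodes. FDC-gated barcodes with Malat1, a nuclear RNA, under 1% of UMIs had 0 Ch25h UMIs among 256763 (63 barcodes, which allows up to 11.7 CPM), against 22.9 ± 8.10 CPM in the 167 others. Barcodes with 3 or more UMIs of Cxcl1, a chemokine for neutrophils, were at 17.9 ± 6.81 CPM and the remainder at 39.6 ± 9.29 CPM. Barcodes with 3 or more UMIs of 5 interferon-induced genes were at 23.6 ± 4.22 CPM and the remainder at 33.4 ± 7.30 CPM (SD, n = 3). Library values overlapped in this split, at 19.8 to 28.2 and 25.4 to 39.7 CPM. Ch25h is known as a gene that interferon can induce. Cyp7b1 was at 17.7 ± 6.15 and 20.8 ± 8.91 CPM in the same interferon split. None of these splits was tested, and the mix of gates in the Cxcl1 and interferon sets was not examined.

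The 2-IC and 1-IC groups could not be tested, since 1-IC has 1 library. Over all retained barcodes Ch25h was at 34.8 CPM (exact Poisson 95% interval 30.9 to 39.0) and 32.1 CPM (27.6 to 37.1) in the 2-IC libraries and at 24.7 CPM (18.4 to 32.6) in the 1-IC library. The 1-IC value was the lowest of the 3 in the FDC, MRC, IFRC and TBRC gates, and between the 2-IC values in the MedRC gate. For Cyp7b1 the levels were 16.9, 26.8 and 14.3 CPM, so the 2-IC libraries stood further from each other than replicate 1 stood from the 1-IC library. Group, pool of mice and library cannot be told apart here.

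The receptor was found almost entirely outside the retained stromal barcodes. Of 3037 Gpr183 UMIs in all deposited barcodes, 2965 were in barcodes left out for contaminant genes and 22 in retained stromal barcodes. The left-out barcodes held 19416200 of the 37162530 UMIs of all genes. The filter takes out barcodes with B and T cell genes, so it set much of this split in advance. The B cell barcodes held 1057, at 400, 624 and 291 CPM in the 3 libraries, and the cell types of the other barcodes left out were not examined. Its IFRC minus FDC value was -1.80 (95% interval -3.87 to 0.26, edgeR adjusted p = 0.285).

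The remaining genes of sterol handling were read from lists, by count. Of 20 tested genes that SREBP2, the master regulator of cholesterol supply, is known to switch on or that act with it, 14 were lower in the IFRC gate than in the FDC gate and none was higher, with a median log2 difference of -1.47 against 0.05 for all genes. Of all genes, 7.89% were called lower and 6.48% higher in this comparison. Among them were Msmo1, Sc5d, Idi1, Fdps, Stard4, Lss, Sqle, Nsdhl, Insig1, Cyp51, Srebf2 and Fdft1. Msmo1, which removes methyl groups from sterol precursors, was at 92.0 ± 25.6 CPM in the FDC gate and 17.6 ± 1.79 CPM in the IFRC gate (log2 difference -2.34, edgeR adjusted p = 8.61e-11). Srebf2 itself was at 62.8 ± 1.70 and 25.5 ± 4.56 CPM (-1.27, edgeR adjusted p = 3.70e-05). The count of lower genes was 10 without 2-IC replicate 1 and 10 without the library block, 5 of 19 in thinned data and 1 of 20 among barcodes with exactly 1 gate gene, and none was higher in any of these. In the MRC gate, where Ch25h was highest, 5 of the 20 were lower than in the FDC gate and none was higher (2.56% of all genes were called lower), with a median of -1.42, close to that of IFRC minus FDC. In the MedRC gate 15 of the 20 were lower than in the FDC gate (median -1.55), and in the TBRC gate 12 (-1.18). None was higher in either, where 18.3 and 14.7% of all genes were called in either direction. Of all 13882 genes, 1274 were called lower in MedRC minus FDC and 1095 in TBRC minus FDC. Mean Ch25h in the MedRC and TBRC gates was below that of the FDC gate, but these differences did not pass and changed sign with exactly 1 gate gene. Lower SREBP2 genes were thus found in each of the other gates against FDC. A link with the level of Ch25h was not tested.

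Of 6 tested targets of LXR, the nuclear receptor for oxysterols, 2 were higher in IFRC than in FDC (6.48% of all genes were called higher, 14.4% in either direction). They were Apoe, a carrier of lipids (17280 ± 3889 against 5476 ± 3405 CPM, log2 difference 1.83, edgeR adjusted p = 8.21e-12), and Abca1, which exports cholesterol (0.51, edgeR adjusted p = 0.0475). The median of the 6 was 0.82, and with barcodes that held contaminant genes put back it was -0.02, with Apoe and Abca1 higher and Mylip lower. The count was 1 of 6 in 10 of the 14 alternatives: Apoe was called in all 14 and Abca1 in 4, so the call of Abca1 was not stable. Other gates were also higher than FDC, with 3 of the 6 in MedRC, 2 in TBRC and 1 in MRC. In these comparisons 18.3, 14.7 and 3.6% of all genes were called in either direction, and 1269, 942 and 144 of the 13882 genes were called higher. Apoe was at 20116 ± 4737 CPM in MedRC and 21288 ± 4775.5 CPM in TBRC, above IFRC. In the MRC gate, where Ch25h was highest, it was at 9544 ± 4494 CPM. Of 7 tested enzymes that act on other sterols, Hsd11b1 alone was called, higher in IFRC (3.01, edgeR adjusted p = 0.047), from 1 UMI in the FDC gate. It was called in 2 of the 12 alternatives that tested it, and lost the call with DESeq2, without the block and without each library. Cyp27a1, which adds a hydroxyl group to cholesterol at another position, was at 35.6 ± 6.95 CPM in FDC and 25.8 ± 4.70 CPM in IFRC and did not pass (edgeR adjusted p = 0.400). None of 4 tested oxysterol receptors passed. With contaminant barcodes put back Nr1h3 and Rora were higher and Gpr183 lower, where 23.6% of all genes were called. The FDC gate then also held B cell barcodes with Cr2. Gpr183 was at 438 ± 170 CPM in B cell barcodes and at 2.37 ± 4.10 CPM in the filtered FDC gate. The part of B cells in these calls was not tested.

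**Figure D5:**
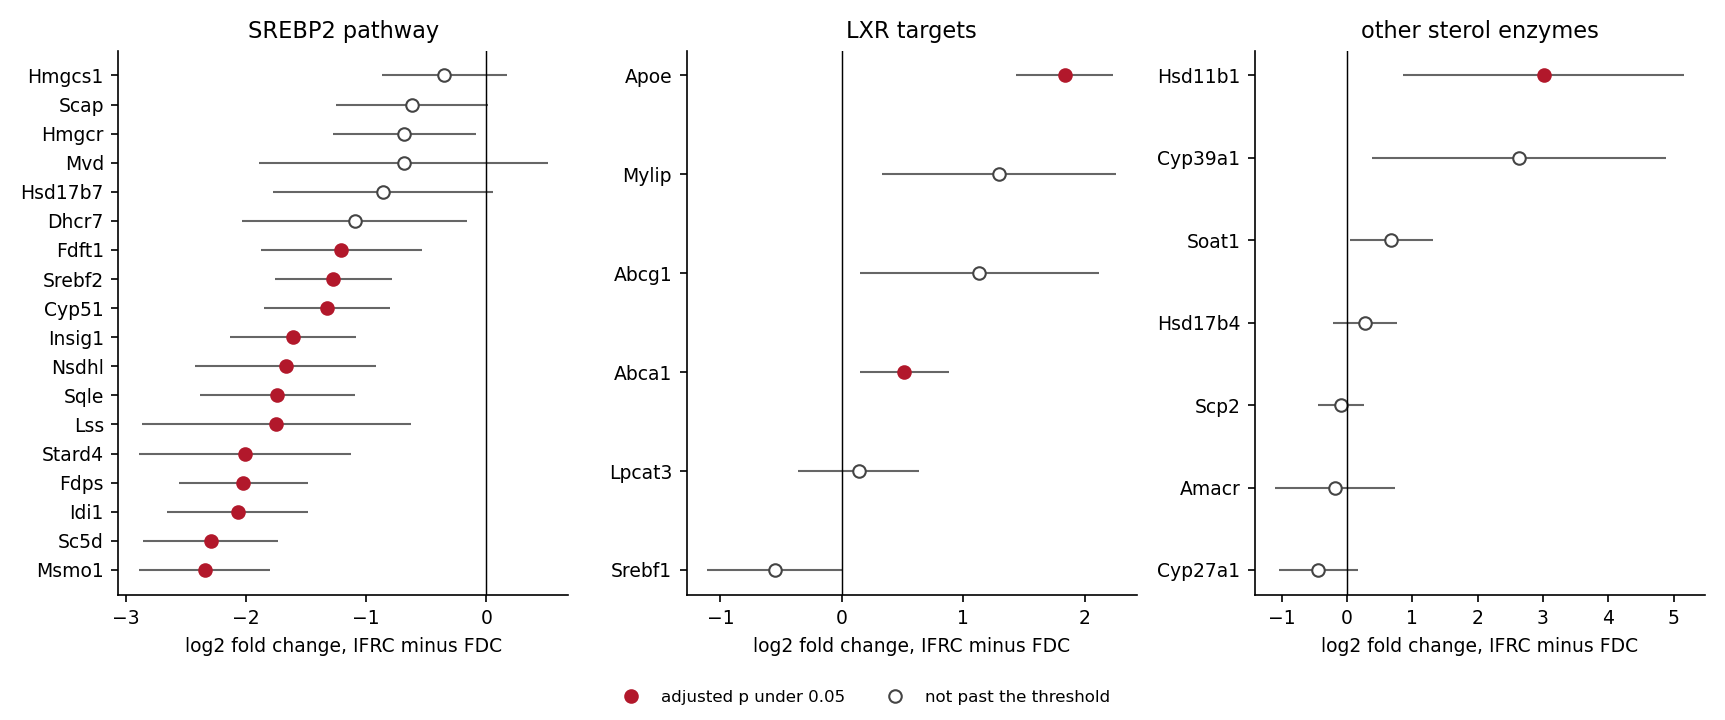
Log2 fold change of IFRC minus FDC with its 95% interval for the tested genes of the SREBP2, LXR and other sterol enzyme lists, from edgeR with library as a block; filled points passed an adjusted p of 0.05. Of the 20 tested SREBP2 genes 18 are drawn, and the 12 filled points among them lie between Fdft1 at -1.21 and Msmo1 at -2.34.

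Other guidance cues also differed between these gates. Of 11 tested genes, Ccl19, Ccl21a, Cxcl12, Spns2 and Enpp2 were higher in the IFRC gate and Cxcl13 and Sphk1 lower, where 14.4% of all genes were called. Without the library block Ccl19 and Spns2 were called higher and Cxcl13 and Sphk1 lower. Cxcl13, the chemokine that draws B cells into the follicle, was at 35604 ± 17087 CPM in the FDC gate and 9177 ± 4002 CPM in the IFRC gate (log2 difference -1.94, edgeR adjusted p = 1.22e-13). Its order of gates (FDC, MRC, IFRC, MedRC, TBRC) differed from that of Ch25h, in which the MRC and IFRC gates came before the FDC gate. Spns2, which exports sphingosine 1-phosphate, was at 270 ± 22.1 CPM in IFRC and 74.8 ± 33.2 CPM in FDC (1.82, edgeR adjusted p = 1.49e-11).

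Among 2988 genes with a mean of 50 CPM or more, those most like Ch25h over the 15 sums of gate and library were Prrc2a, Galnt18, Trp53, Tia1 and Canx, with Pearson correlations of log2 CPM of 0.90, 0.90, 0.89, 0.87 and 0.86. Those most like Cyp7b1 were Gnptab, St5, Il6st, Cpd and Rdh10, at 0.87, 0.86, 0.84, 0.83 and 0.83. The sums share 3 libraries and differ in depth, and these are descriptions. They depended on the barcodes used. The 5 of Ch25h ranged from -0.23 (Prrc2a) to 0.66 in thinned data and from -0.10 (Tia1) to 0.72 in barcodes with exactly 1 gate gene (14 sums), and the 5 of Cyp7b1 from 0.13 (Il6st) to 0.81 and from 0.22 (St5) to 0.58. Hsd3b7 was too sparse for such a comparison.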

How the data were processed

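The authors deposited UMI counts per gene and barcode from Cell Ranger (version 5.0.0 per the file headers; the study's methods name another major version), aligned to GRCm38, from 3' libraries. Barcodes with 200 or more genes, at most 10% mitochondrial UMIs and no UMI of 13 contaminant genes were retained, as in the study's methods. Gates needed 1 UMI of the gate gene and none of the earlier ones. UMIs were summed per gate and library (5 or more barcodes) and tested with edgeR 4.0.16 (R 4.3.3; TMM, quasi-likelihood, library as a block, genes with 15 or more UMIs), with DESeq2 1.42.0 as an alternative. The block follows from the gates of a library coming from the same pooled mice. Deviations from the gate means correlated between all 30 pairs of sums of the same library (0.102 to 0.523) and between different libraries at most 0.03. The gate means were taken over the same 3 libraries, which in itself lowers the correlations between different libraries. The contrast of the 2 kinds of pairs is therefore no separate support for the block. Each library's total was 20607903, 12788101 and 3766526 UMIs. The 3 libraries differ by pool, and also by group and library name. The block removes the spread of levels between libraries. The p-values set the mean difference between gates against the spread that remains, in an estimate that shares information over genes. That spread includes any difference between the groups in how gates compare. Scrublet marked 17 of 4513 barcodes as doublets, of which 2 were retained, too few to have worked, so doublets remain. On simulated counts for IFRC minus FDC (13882 genes, 200 changed) 139 genes were called, 137 of them changed. The simulation had no library effect and the same spread for all genes. It changed only genes with many UMIs, by more than Ch25h differed in this pair. It therefore does not show how often a difference like that of Ch25h is found. The genes and lists were chosen with earlier results of these data known. Named genes were the members, the gate genes, list genes called in IFRC minus FDC, Gpr183 and the 5 genes most correlated with Ch25h and with Cyp7b1 (Hsd3b7 was too sparse). Outside this rule, the marker genes Fcer2a, Fcgr2b, Cd200, Clu, Sox9, Coch, Bst1, Cyp2f2, Stc1, Cxcl9, Lyz2, Tyrobp and Cd52 were named after values were seen. So were the genes that defined the B cell barcodes, and Cyp27a1, Nr1h3, Rora, Mylip, Malat1 and Cxcl1. Intervals are exact (Poisson or Clopper-Pearson binomial, 95%) and cover counting error only, and a count of 0 allows up to 3 counts. Tools were Python 3.11.15, scipy 1.17.1 and scanpy 1.11.5. The alternatives tried were other size factors, DESeq2, filterByExpr, no filter on low counts, no block, stricter gates, no contaminant filter, no doublets, thinning to 2000 UMIs and leaving out each library, and, added after the data were seen, leaving out shared barcodes and splitting the gates. Of the SREBP2 list, 18 of the 20 tested genes are drawn and the others are not reported here by name, although they are in its counts.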

Additional observations from a re-analysis of the deposited data

Results flagged for a closer look

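Barcodes with none of the 5 gate genes entered no comparison, yet Ch25h was at 52.1 ± 21.1 CPM in them (SD, n = 3 libraries; 36.0, 76.04 and 44.4 CPM), above the IFRC, FDC, TBRC and MedRC means, and 12 of the 29 UMIs of 2-IC replicate 2 came from 1 barcode. Of these 448 barcodes, 186 had under 2000 UMIs and held 6 of the 83 Ch25h UMIs. The ungated barcodes also held more myeloid RNA than any gate. Lyz2, Tyrobp and Cd52 were at 270.7 ± 217.7, 57.01 ± 55.56 and 163.4 ± 142.6 CPM in them. In the FDC gate, the highest of the gates, they were at 78.22 ± 30.55, 12.93 ± 11.22 and 59.35 ± 43.22 CPM. Whether this Ch25h came from stromal cells was not tested. Gpr183 was at 438 ± 170 CPM in B cell barcodes, which are outside the stromal comparisons.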

How the results depend on the processing

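The number of gate pairs called for Ch25h was 7 and fell to 3 with no replicate block and to 3 after thinning to 2000 UMIs; leaving out 1 library gave 4 to 7, the 4 without 2-IC replicate 1. IFRC minus FDC for Ch25h, 0.98 as reported, lost its call with DESeq2 (0.91), with no replicate block (0.96) and in thinned data (1.63), and ranged from 0.93 to 1.01 without 1 library. For Cyp7b1, IFRC minus FDC turned to 0.45 without the contaminant filter, and ranged from -0.47 to 0.0201 when 1 library was left out (0.0201 without 2-IC replicate 1); the pairs called were 0 but 1 without the contaminant filter. Hsd3b7 was called in no pair under any alternative, and had a fit only with no filter on low counts.

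Signs turned in other pairs without a call, except as said. For Ch25h, TBRC minus FDC became 0.53 with 2 or more gate UMIs, 2.51 (a call) with exactly 1 gate gene and 0.34 without the contaminant filter; MedRC minus FDC became 1.13 with exactly 1 gate gene and 0.40 after thinning; MedRC minus TBRC became 1.94 after thinning and ranged from -0.51 to 0.22 when 1 library was left out (0.22 without 2-IC replicate 2). For Cyp7b1, thinning gave -0.057 in MRC minus FDC, 0.64 in TBRC minus IFRC and 0.0252 in MedRC minus IFRC; no contaminant filter gave 0.16 in TBRC minus FDC, 0.38 in MedRC minus FDC and 0.22 in MedRC minus TBRC; MedRC minus TBRC was also 0.0711 with 2 or more gate UMIs and 0.0692 with exactly 1 gate gene, and ranged from -0.22 to 0.0663 when 1 library was left out (0.0663 without 2-IC replicate 1). In IFRC minus FDC, Cyp51 was at 0.0193 and Lss at 0.57 with exactly 1 gate gene, and Hsd11b1 at -0.0428 without the contaminant filter. The correlation of Ch25h with Prrc2a was -0.23 after thinning and that with Tia1 -0.10 with exactly 1 gate gene. The cause was not tested, beyond the fewer UMIs that thinning and left-out barcodes leave. Without the contaminant filter the FDC gate also held B cell barcodes with Cr2, so its pairs there were not between stromal cells alone. Over all genes, IFRC minus FDC had 1994 calls as reported, 881 with no replicate block, 815 after thinning, 928 with exactly 1 gate gene, 1264 without 2-IC replicate 1 and 3777 without the contaminant filter. With DESeq2 size factors 200 of 505 calls in IFRC minus MRC were higher, against 333 of 567 as reported. The higher and lower calls were 551 and 506 against 718 and 430 in MedRC minus MRC, and 431 and 399 against 546 and 327 in TBRC minus MRC.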

Other observations

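Barcodes left out for contaminant genes (2270 of the 4513 that passed the limits on genes and mitochondrial UMIs) held 293 Ch25h UMIs, at 13.7 ± 6.99 CPM, and 200 Cyp7b1 UMIs, at 9.75 ± 3.78 CPM (SD, n = 3 libraries). Over all 5486 deposited barcodes Ch25h was at 21.0 ± 4.17 CPM and Cyp7b1 at 14.1 ± 4.75 CPM. In the ungated barcodes of 2-IC replicate 2, 13 of the 18 Cyp7b1 UMIs were in 1 barcode.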
